A study of Mus musculus with 6 samples.

Results

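The cyclins, cyclin-dependent kinases (CDKs), CDK inhibitors and E2F-RB factors are the regulators that drive a cell from G1 through S phase into mitosis, or hold it back. They were taken here as a list of 49 genes chosen by name, and a gene was measured where the array annotation assigned at least 1 probe set to that gene alone. This gave 47 genes with 105 probe sets, of 18193 genes on the array, and each gene is represented by 1 probe set, the one whose mean over the 6 samples was highest. Ccnb1 and Trp53 are not analysed here.

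The samples were tracheal mesenchyme of adult male C57Bl/6 mice, 8 to 12 weeks old. In the 48 hpi group (hours post injury, n = 3) the mice had breathed 500 ppm SO2 for 4 h, a gas injury that removes the luminal cells of the airway epithelium, and tissue was taken 48 h later. The control group (n = 3) was normal mice, also male and of the same strain. Each sample pooled the tissue of 4 mice, so that the errors below describe the spread between pools and not between single mice. In both groups the epithelium was loosened with dispase for 23 min and peeled off, and the whole remaining tissue was used with no selection of a cell type, so that fibroblasts, cartilage, smooth muscle, vessels, nerve and blood-derived cells were measured together.

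CDKs are active only when bound to a cyclin. D cyclins with Cdk4 or Cdk6, and E cyclins with Cdk2, phosphorylate the pocket proteins of the RB family and so free the E2F factors to switch on the genes of DNA replication, whereas the B cyclins with Cdk1 drive mitosis. In quiescent cells the MuvB core, which includes Lin9 and Lin54, represses these genes together with pocket proteins, and in dividing cells it activates the mitotic genes with Mybl2 and Foxm1. Most cells of the adult trachea divide rarely, and airway repair after inhaled injury is a known setting in which they re-enter the cycle.

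Values are robust multi-array average (RMA) expression on the log2 scale, so that a difference of 1 is a doubling. A gene was said to have risen or fallen when limma's moderated test of 48 hpi against control gave a Benjamini-Hochberg adjusted p under 0.05, over all 45037 probe sets. RMA compresses the fold changes of dim probe sets. Probe sets were called dim below 5.05, the level under which 95% of 80 probe sets for odorant and vomeronasal receptors lay, genes with no known role in the trachea. By that bound 4 of the measured genes (Cdkn2a, Mybl2, Lin9 and Cdc25c) were dim in both groups, and 6 (Ccne2, Ccnb2, Ccnf, Cdkn3, E2f2 and E2f7) were dim in control mesenchyme only.

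Over probe sets the arrays correlated at 0.987 to 0.994 within a group and at 0.974 to 0.989 between the groups. Markers of the labelled tissue were bright in both groups, with mean levels over the 8 fibroblast markers of 12.05 to 12.23 at 48 hpi and 11.92 to 12.08 in control mesenchyme, and over the 7 cartilage markers of 11.22 to 11.56 at 48 hpi and 11.80 to 12.02 in control mesenchyme. The mesenchyme was not free of other cells. All 8 leukocyte markers and all 10 macrophage and monocyte markers rose at 48 hpi, where 4.97% of all genes rose and 1.24% fell. Tyrobp rose by 1.77 ± 0.18, Csf1r by 0.93 ± 0.12 and Itgam by 2.88 ± 0.17. The mean level of the leukocyte markers was 9.31 to 9.73 at 48 hpi and 7.82 to 8.45 in control mesenchyme, and that of the macrophage markers was 8.97 to 9.30 at 48 hpi and 7.40 to 7.62 in control mesenchyme. When the replicate number was added to the fit as a block, 8.77% of all genes rose and 4.64% fell, the shares for the block counts here. Of 7 neutrophil markers 3 rose (4 with the block), S100a8 most, by 4.27 ± 0.77, and their mean level was 6.73 to 7.32 at 48 hpi and 5.06 to 5.77 in control mesenchyme. Of 6 endothelial markers 2 rose (3 with the block), with Cdh5 at 0.71 ± 0.14 and Kdr at -0.13 ± 0.11, and their mean level was 7.34 to 7.59 at 48 hpi and 6.84 to 7.28 in control mesenchyme. All 7 cartilage markers were below 0. Of these Chad fell, by 0.74 ± 0.14, Acan differed by -0.23 ± 0.10, and 4 fell with the block. Of 4 listed Schwann cell markers 2 were measured. Of these S100b fell by 0.57 ± 0.10 (adjusted p = 0.0228), and the other stood at -0.16 and did not pass. Of the fibroblast and smooth muscle markers none passed (Col3a1 0.20 ± 0.13, Acta2 0.17 ± 0.17), although 2 of the 8 fibroblast markers rose with the block, and of 8 lymphocyte markers none passed (Cd4 -0.02 ± 0.15). Of the leukocyte and macrophage markers none was dim at 48 hpi, and Itgam, the integrin chain of myeloid cells, lay at 6.56 to 7.06 at 48 hpi and at 3.78 to 4.26 in control mesenchyme. Epithelial RNA was also present, since the secretory cell product Scgb1a1 lay at 12.31, 9.90 and 8.72 in the 48 hpi samples and at 13.46, 12.69 and 12.50 in the control samples (adjusted p = 0.146, and 0.0146 with the block). Of 8 luminal cell markers none passed, and 2 fell with the block. None of 5 basal cell markers passed the test (Krt15 0.40 ± 0.45), and their mean level was 6.37 to 7.23 at 48 hpi and 6.11 to 6.78 in control mesenchyme.

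Of the 47 regulators, 14 rose at 48 hpi and 0 fell. The 14 are 29.8% of the genes measured, and 4.97% of all 18193 genes rose and 1.24% fell by the same test. The kinase Cdk1, the mitotic cyclin Ccnb2, the S phase cyclin Ccna2, the CDK phosphatase Cdkn3 and the CDK-binding protein Cks2 rose most, by 6.97 to 12.2 fold. D cyclins, Cip/Kip and INK4 inhibitors and the factors Foxm1 and Myc did not pass in the probe sets used. However, the result for Foxm1 depended on how its probe sets were used, and the INK4 genes Cdkn2c and Cdkn2d passed with the replicate block. The 14 changes that passed ran from 0.52 to 3.61 on the log2 scale, with adjusted p between 0.000131 and 0.0351. Over 2-fold rises were found in 10 of the 47 genes and in 383 of all genes. The median log2 fold change was 0.33 over the 47 genes and -0.01 over all genes, with 36 regulators above 0 and 11 below 0.

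Because samples with the same replicate number deviated together, the comparison was also fitted with that number as a block. In this fit 20 of the 47 regulators rose, 42.6%, against 8.77% of all genes, and 0 fell, against 4.64% of all genes. The 14 genes stayed past the threshold, and Ccnf, Cdkn2c, Cdkn2d, Skp2, Lin9 and Lin54 joined them. At the level of single samples, 27 of the 47 regulators (57.4%) had all 3 values at 48 hpi above all 3 control values, as did 17.2% of all genes. In 3 regulators (6.38%), Ccng2, Cdkn1a and Cdkn2a, all values at 48 hpi lay below the control values, as in 13.1% of all genes, and in the other 17 the groups overlapped. The part that leukocytes, endothelium or any other cell type had in these rises was not tested, and in whole tissue a higher share of dividing cells and more RNA per cell cannot be told apart.

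**Figure D1:**
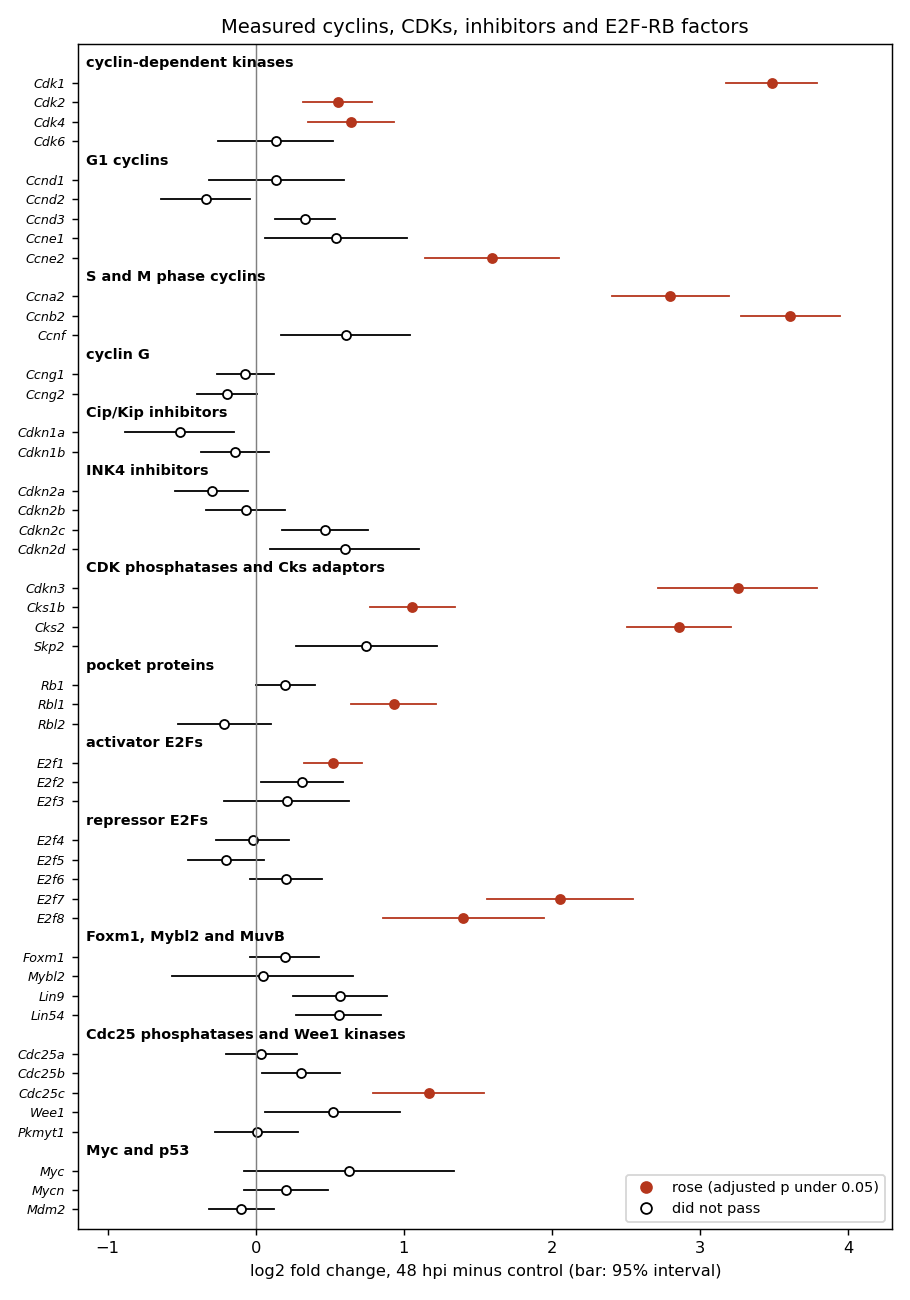
Log2 fold change, 48 hpi minus control (x axis), of each of the 47 measured regulators, grouped by role; bars are 95% intervals of the limma fit and red points passed at adjusted p under 0.05. The 14 red points lie between 0.52 and 3.61, and no point left of 0 is red.

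The promoters of the genes that rose most are shown, since the factors under study act through known letter strings there. RefSeq windows of 300 bases (250 before to 50 after the start site, build GRCm38.p6) were given for 34 of the 47 genes, in 42 windows. Searched on both strands were the cell cycle genes homology region (CHR), which Lin54 binds, as TTTGAA or as TTCGAA, the CCAAT box bound by NF-Y as CCAAT, and the E2F site as TTTGGCGC or TTTGCCGC or TTTCGCGC or TTTCCCGC. The 5 windows below belong to the genes with the largest rises among those with a window. They are written 5′ to 3′ on the gene's strand, with matches in capitals. The window of Ccnb2 is chr9:70421505-70421804, minus strand, that of Cdk1 is chr10:69352863-69353162, minus strand, that of Cdkn3 is chr14:46760291-46760590, plus strand, that of Cks2 is chr13:51644982-51645281, plus strand, and that of E2f7 is chr10:110745189-110745488, plus strand.
Ccnb2: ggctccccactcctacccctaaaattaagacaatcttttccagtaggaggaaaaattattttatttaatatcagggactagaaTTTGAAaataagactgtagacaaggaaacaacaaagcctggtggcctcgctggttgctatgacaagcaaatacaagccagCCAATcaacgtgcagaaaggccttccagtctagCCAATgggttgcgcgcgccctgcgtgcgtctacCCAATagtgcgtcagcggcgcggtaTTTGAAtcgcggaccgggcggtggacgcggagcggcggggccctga
Cdk1: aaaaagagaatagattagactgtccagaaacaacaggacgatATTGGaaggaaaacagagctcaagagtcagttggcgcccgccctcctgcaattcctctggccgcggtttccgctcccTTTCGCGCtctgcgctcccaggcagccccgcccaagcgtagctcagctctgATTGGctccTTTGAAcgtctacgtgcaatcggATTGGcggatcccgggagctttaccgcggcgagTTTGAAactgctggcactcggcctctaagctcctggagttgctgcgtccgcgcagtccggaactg
Cdkn3: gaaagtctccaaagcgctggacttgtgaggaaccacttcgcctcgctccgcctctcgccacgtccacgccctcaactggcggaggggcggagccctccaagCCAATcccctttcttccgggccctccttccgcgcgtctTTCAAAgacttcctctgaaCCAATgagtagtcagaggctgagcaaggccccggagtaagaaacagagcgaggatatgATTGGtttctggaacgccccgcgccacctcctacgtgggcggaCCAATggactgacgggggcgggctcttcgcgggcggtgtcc
Cks2: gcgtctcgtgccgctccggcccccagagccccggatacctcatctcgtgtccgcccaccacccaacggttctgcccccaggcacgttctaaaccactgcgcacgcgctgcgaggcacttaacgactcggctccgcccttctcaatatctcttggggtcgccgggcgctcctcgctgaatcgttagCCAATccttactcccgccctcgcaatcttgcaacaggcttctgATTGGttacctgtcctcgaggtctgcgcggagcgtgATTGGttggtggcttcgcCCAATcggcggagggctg
E2f7: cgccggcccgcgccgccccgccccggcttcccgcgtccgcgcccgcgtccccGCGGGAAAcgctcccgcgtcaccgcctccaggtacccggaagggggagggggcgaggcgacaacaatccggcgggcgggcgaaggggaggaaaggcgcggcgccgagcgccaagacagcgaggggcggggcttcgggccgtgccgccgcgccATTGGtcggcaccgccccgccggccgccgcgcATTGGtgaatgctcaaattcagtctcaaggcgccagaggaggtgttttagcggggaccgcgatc
Ccnb2 and Cdk1 each held CHR letters at 2 places and CCAAT at 3, with 1 CHR match of each gene close to the start site, 4 bases after it in Ccnb2 and 15 bases before it in Cdk1. Cdkn3 held 1 CHR match and 4 CCAAT matches, and Cks2 held 4 CCAAT matches with no CHR or E2F letters in its window. E2f7 held the E2F letters 198 bases before the start site and CCAAT at 2 places, and Cdk1 held the E2F letters 131 bases before its start.

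Across the regulators, 15 of 42 windows (35.7%) held CHR letters, 23 (54.8%) held CCAAT and 9 (21.4%) held the E2F letters. Over all 32851 windows given for 27025 genes these shares were 19.2%, 37.4% and 2.26%. Among the 11 windows of the 11 genes that rose, 5 held CHR letters, 8 held CCAAT and 4 held the E2F letters. The 23 regulators that did not pass had 31 windows, of which 10 held CHR letters, 15 CCAAT and 5 the E2F letters. Some of these 23 had several windows, so that the counts are of windows and the shares of the 2 groups are not per gene. CHR and CCAAT letters stood together in 5 of the 11 windows, in 6 of the 31 and in 7.52% of all windows. These matches describe the letters of the windows and were not measured as binding.

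Among the kinases, 3 of 4 rose. Cdk1, the kinase of mitosis, lay at 8.70, 8.74 and 8.71 in the 48 hpi samples and at 5.02, 5.51 and 5.16 in the control samples. The groups stood far apart, and the 48 hpi samples differed from each other by less than the control samples did. The difference was 3.48 ± 0.13 on the log2 scale (SE, adjusted p = 0.000131), an 11.2-fold rise. Cdk2, the kinase of the G1-S transition, lay at 6.43, 6.53 and 6.62 at 48 hpi and at 5.94, 6.11 and 5.87 in control mesenchyme. All its 48 hpi values were the higher ones, with a rise of 0.55 ± 0.10 (adjusted p = 0.0290). Its other probe set was dim and did not pass, at 0.02 (adjusted p = 0.928).

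Cdk4, a partner of the D cyclins, lay at 8.66, 8.63 and 8.41 at 48 hpi and at 7.96, 8.09 and 7.72 in control mesenchyme, with no overlap and a rise of 0.64 ± 0.12 (adjusted p = 0.0351). Its probe set is of a class that Affymetrix marks as sharing some probes with other sequences. The other 2 Cdk4 probe sets gave 0.69 (adjusted p = 0.0504) and 0.58 (adjusted p = 0.0934), similar in size without passing. With the replicate block both passed (adjusted p = 0.0145 and 0.0187). Cdk6, which acts beside Cdk4, ranged from 7.97 to 8.35 at 48 hpi and from 7.75 to 8.24 in control mesenchyme. The groups overlapped, with a difference of 0.13 ± 0.17 (adjusted p = 0.714).

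The rise of Cdk1 exceeded that of Cdk2 by 2.93 on the log2 scale, and the difference between the 2 genes was higher in every 48 hpi sample than in every control sample. For 17 such pairs of related genes the per-sample difference was compared between the groups with a two-sided exact permutation test, in which 3 against 3 samples cannot give a p below 0.1. In 10 pairs, Cdk1 and Cdk2 included, the groups did not overlap and p was 0.1, which is 0.17 after adjustment over the 17 pairs, so that no pair could pass. For Cdk4 over Cdk6 the difference was 0.51 (exact p = 0.2, adjusted 0.262). In the pairs that overlapped the differences ran from -0.65, for E2f8 over E2f7, to 0.51, with exact p of 0.2 to 0.9. The pairs were chosen with the genes' results in view.

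Of the cyclins of G1, only Ccne2 rose. Cyclins E1 and E2 activate Cdk2 at the start of S phase. Ccne2 lay at 5.99, 5.93 and 6.31 at 48 hpi and at 4.86, 4.14 and 4.44 in control mesenchyme, and the difference was 1.59 ± 0.19 (adjusted p = 0.00702), a 3.02-fold rise from a dim control level. Ccne1 lay at 5.99, 6.28 and 6.85 at 48 hpi and at 5.78, 5.83 and 5.88 in control mesenchyme. All its 48 hpi values were above the control values, yet the 48 hpi samples were widely spread (SD 0.44), and the difference of 0.54 ± 0.20 did not pass (adjusted p = 0.208). This probe set is of the same class as that of Cdk4, which shares some probes with other sequences. A second, dimmer Ccne1 probe set, not of that class, was tighter and rose by 0.56 (adjusted p = 0.0303). In the probe sets used, the change of Ccne1 was 1.05 below that of Ccne2, with no overlap of the per-sample differences (exact p = 0.1).

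The D cyclins, which respond to growth factors and activate Cdk4 and Cdk6, did not pass in any of 13 probe sets. Ccnd1 lay at 9.34, 9.03 and 9.05 at 48 hpi and at 9.36, 8.61 and 9.03 in control mesenchyme, with overlap and a difference of 0.14 ± 0.19 (95% interval -0.32 to 0.59). Ccnd2 lay at 10.68, 11.03 and 10.87 at 48 hpi and at 11.03, 11.21 and 11.36 in control mesenchyme. Its highest 48 hpi value lay just above its lowest control value, and the difference was -0.34 ± 0.13 (adjusted p = 0.209), with all 7 Ccnd2 probe sets below 0. Ccnd3 lay at 8.75, 8.74 and 8.70 at 48 hpi and at 8.34, 8.51 and 8.35 in control mesenchyme. Here the groups did not overlap, and the difference of 0.33 ± 0.09 missed the threshold (adjusted p = 0.0884). The other 2 Ccnd3 probe sets did not pass, and the lowest of the 3 stood at -0.04.

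Of the 3 cyclins of S phase and mitosis 2 rose, Ccna2 and Ccnb2. Ccna2, which partners Cdk2 in S phase and Cdk1 in G2, lay at 8.31, 8.31 and 8.74 at 48 hpi and at 5.44, 5.59 and 5.93 in control mesenchyme. The difference was 2.80 ± 0.17 (adjusted p = 0.000493), a 6.97-fold rise, and a second probe set gave 3.11. Ccnb2, a partner of Cdk1 in mitosis, lay at 7.62, 7.55 and 8.01 at 48 hpi and at 4.01, 4.08 and 4.27 in control mesenchyme. Its control values were dim, and its rise of 3.61 ± 0.14 (adjusted p = 0.000131) was the largest among the 47 regulators, 12.2-fold. Ccnf, an F-box protein that directs substrates to degradation in G2 and does not activate a kinase, lay at 5.07, 5.08 and 5.43 at 48 hpi and at 4.21, 4.86 and 4.69 in control mesenchyme. The groups did not overlap, but the difference of 0.61 ± 0.19 did not pass (adjusted p = 0.131, and 0.0348 with the replicate block).

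**Figure D2:**
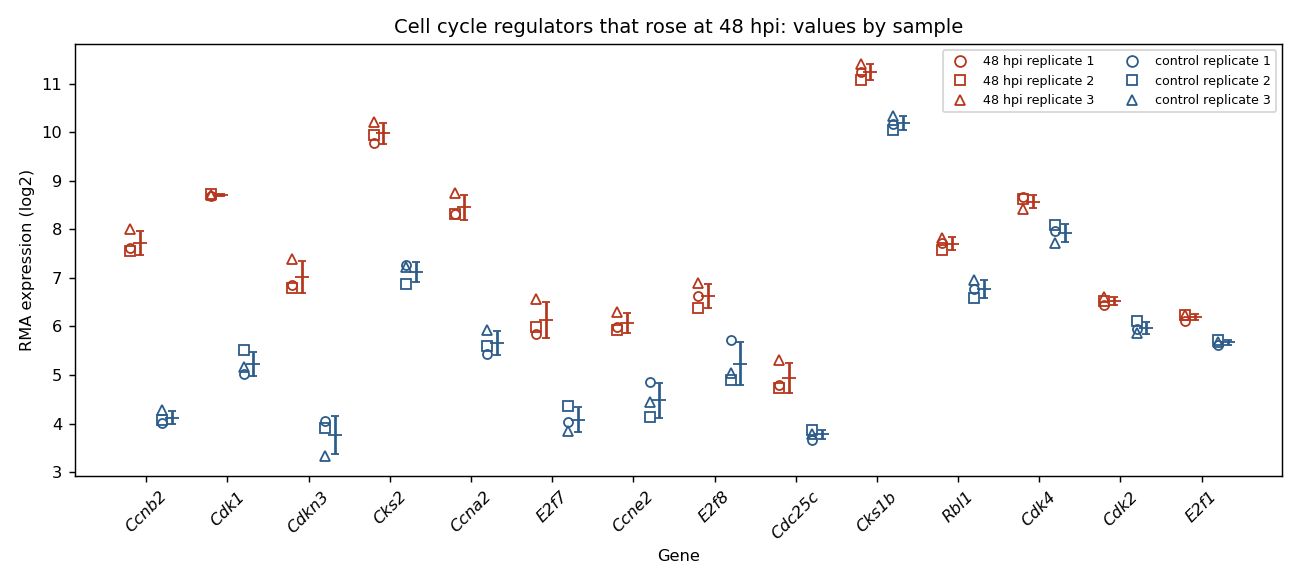
RMA expression (log2, y axis) of the 14 regulators that rose, in order of their change, with the 48 hpi samples in red left of the control samples in blue. Symbols mark the replicate number and bars the mean ± SD of the 3 samples; in all 14 genes the 3 values at 48 hpi lie above the 3 control values.

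Among the injured samples, replicate 3 held the highest 48 hpi value in 11 of the 14 (78.6%), the exceptions being Cdk1, Cdk4 and E2f1, and in 33.8% of all genes. In control mesenchyme the highest value was in replicate 1 for 4 genes, in replicate 2 for 6 and in replicate 3 for 4. Without 48 hpi replicate 3, 9 of the 47 regulators rose, all of them among the 14. Those that rose in every fit without 1 sample were also 9, namely Cdk1, Ccne2, Ccna2, Ccnb2, Cdkn3, Cks1b, Cks2, E2f7 and Cdc25c. The share of all genes that rose was not taken for these fits.

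The other 5 rises did not hold in every fit of limma that left out a sample. Cdk4 passed in 0 of the 6 fits, with an adjusted p of 0.0578 to 0.102. Cdk2 passed only without control replicate 2 (adjusted p = 0.0471), with up to 0.125 without 48 hpi replicate 3. E2f1 passed only without 48 hpi replicate 1 (adjusted p = 0.0446), and E2f8 only without 48 hpi replicate 2 (0.0403) or control replicate 1 (0.00810). Rbl1 passed in 5 of the 6, with 0.0512 without 48 hpi replicate 3.

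The cyclin G genes encode proteins with a cyclin box, of which Ccng1 is a target of p53. Ccng1 ranged from 9.83 to 9.95 at 48 hpi and from 9.90 to 10.02 in control mesenchyme, a difference of -0.07 ± 0.08 (adjusted p = 0.698). Its other probe sets stood at 0.21 with overlap and at 0.50 without overlap (adjusted p = 0.556 and 0.0902). None passed, and the sign of the change depends on the probe set. Ccng2 lay at 7.96, 8.11 and 7.97 at 48 hpi and at 8.17, 8.28 and 8.18 in control mesenchyme. Its 48 hpi values were all the lower ones, by 0.20 ± 0.09 on average, without passing (adjusted p = 0.280).

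None of the 6 listed inhibitors of the Cip/Kip and INK4 families passed the test. Cdkn1a, which encodes p21 and is induced by p53, lay at 9.96, 10.01 and 9.73 at 48 hpi and at 10.64, 10.09 and 10.51 in control mesenchyme. Every 48 hpi value was below every control value, and the difference was -0.51 ± 0.16 (adjusted p = 0.132, and 0.0677 with the replicate block). It was the most negative of the 47 changes. The remaining Cip/Kip gene, Cdkn1c (p57), is not among the 47 regulators and is given with the other cyclins and CDKs. Cdkn1b, which encodes p27, ranged from 9.17 to 9.32 at 48 hpi and from 9.23 to 9.45 in control mesenchyme, with overlap and a difference of -0.14 ± 0.10 (adjusted p = 0.491).

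The INK4 proteins bind Cdk4 and Cdk6 and keep D cyclins off them. Cdkn2c, which encodes p18, lay at 9.30, 9.22 and 9.01 at 48 hpi and at 8.74, 8.86 and 8.52 in control mesenchyme. Cdkn2d, which encodes p19, lay at 8.0, 7.98 and 7.74 at 48 hpi and at 7.49, 7.64 and 6.80 in control mesenchyme. In both genes the groups did not overlap, with differences of 0.47 ± 0.12 (adjusted p = 0.0920, and 0.0227 with the replicate block) and 0.60 ± 0.21 (adjusted p = 0.189, and 0.0307 with the block). The samples numbered 3 were the lowest of their group in both genes. Cdkn2b, which encodes p15, differed by -0.07 ± 0.11 (adjusted p = 0.792). Cdkn2a, which encodes p16 and the p53 regulator ARF, was dim in both groups, at 3.02 to 3.31 at 48 hpi and 3.38 to 3.58 in control mesenchyme, a range shared by the receptor probe sets, with a difference of -0.30 ± 0.11 (adjusted p = 0.185).

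The small CDK-binding proteins and the phosphatase Cdkn3 rose. Cdkn3, a phosphatase that removes the activating phosphate from CDKs, lay at 6.86, 6.80 and 7.39 at 48 hpi and at 4.05, 3.91 and 3.32 in control mesenchyme, which is dim. The difference was 3.25 ± 0.23 (adjusted p = 0.000791), a 9.54-fold rise. Cks2, an adaptor that helps CDKs engage their substrates, lay at 9.78, 9.95 and 10.20 at 48 hpi and at 7.27, 6.88 and 7.22 in control mesenchyme. Its rise of 2.86 ± 0.15 (adjusted p = 0.000314) was matched by its second probe set, at 3.05. Cks1b, its paralog and the cofactor with which Skp2 recognizes p27, lay at 11.24, 11.08 and 11.42 at 48 hpi and at 10.18, 10.05 and 10.35 in control mesenchyme, and rose by 1.06 ± 0.12 (adjusted p = 0.00562).

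The change of Cks2 exceeded that of Cks1b by 1.80, with no overlap of the per-sample differences (exact p = 0.1). Skp2, the F-box protein that marks p27 for degradation, lay at 5.99, 5.87 and 6.59 at 48 hpi and at 5.17, 5.50 and 5.55 in control mesenchyme. The groups did not overlap, and its difference of 0.75 ± 0.20 was the largest that did not pass (adjusted p = 0.0976, and 0.0194 with the replicate block). Of 6 Skp2 probe sets all were above 0 and 1 rose, by 0.63 (adjusted p = 0.0267). With the block, the Skp2 probe sets at 0.65 and 0.57 passed as well (adjusted p = 0.0225 and 0.0357).

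Among the pocket proteins, Rbl1 (p107), itself a target of E2F, rose. It lay at 7.71, 7.57 and 7.83 at 48 hpi and at 6.77, 6.60 and 6.96 in control mesenchyme, a difference of 0.93 ± 0.12 (adjusted p = 0.00972). Its other 3 probe sets were all dim and did not pass, at 0.05 to 0.29. Rb1, the founding member, lay at 7.69, 7.59 and 7.51 at 48 hpi and at 7.38, 7.43 and 7.38 in control mesenchyme, with separated groups and a difference of 0.20 ± 0.08 that did not pass (adjusted p = 0.265). Rbl2 (p130), the pocket protein of quiescent cells, ranged from 7.33 to 7.82 at 48 hpi and from 7.68 to 7.82 in control mesenchyme, a difference of -0.21 ± 0.13 (adjusted p = 0.443). The change of Rbl1 exceeded that of Rb1 by 0.73 and that of Rbl2 by 1.14, both with separated per-sample differences (exact p = 0.1 each).

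**Figure D3:**
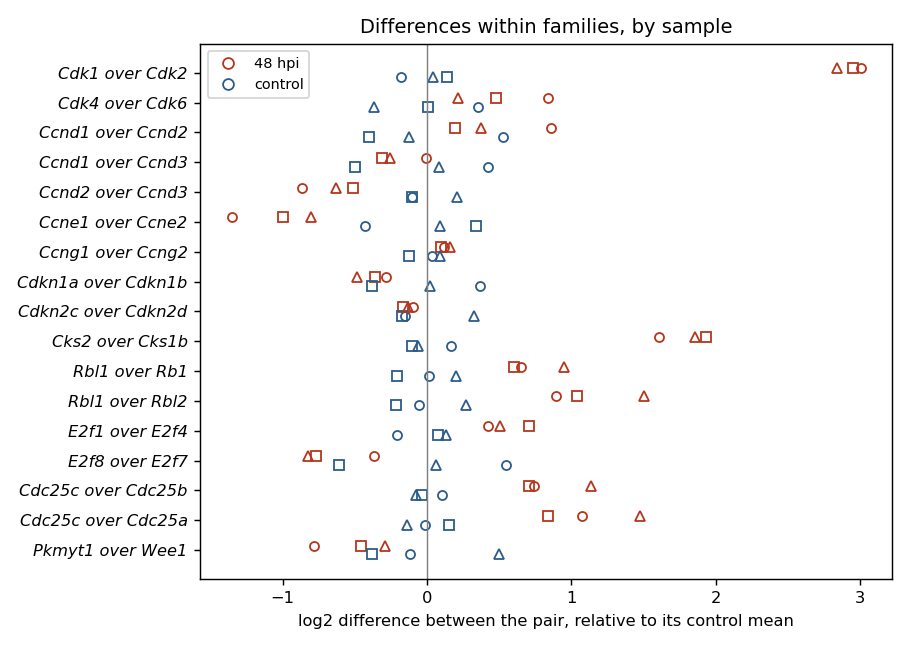
Log2 difference between the 2 genes of each of 17 related pairs in each sample (x axis), set to 0 at the control mean of the pair, with 48 hpi samples in red above control samples in blue and the symbol marking the replicate number. The groups stand apart in 10 pairs, most widely for Cdk1 over Cdk2 (2.93) and Cks2 over Cks1b (1.80).

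Of the E2F factors that activate transcription, E2f1 rose by a small amount. It lay at 6.11, 6.24 and 6.23 at 48 hpi and at 5.62, 5.71 and 5.69 in control mesenchyme, with a narrow spread in each group and a difference of 0.52 ± 0.08 (adjusted p = 0.0189). Without 48 hpi replicate 3 its adjusted p was 0.0906, and its other 2 probe sets, at 0.63 and 0.27, did not pass. The probe set at 0.63 passed with the replicate block (adjusted p = 0.0314). E2f2 ranged from 5.06 to 5.34 at 48 hpi and from 4.70 to 4.99 in control mesenchyme, near the dim bound, with separated groups and a difference of 0.31 ± 0.12 (adjusted p = 0.211). E2f3 overlapped between the groups, with a difference of 0.21 ± 0.18 (adjusted p = 0.583).

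The atypical factors E2f7 and E2f8, which repress E2F target genes late in the cycle without a DP partner, both rose. E2f7 lay at 5.85, 6.00 and 6.56 at 48 hpi and at 4.04, 4.36 and 3.85 in control mesenchyme, where it was dim. Its rise was 2.05 ± 0.21 (adjusted p = 0.00351), 4.15-fold. E2f8 lay at 6.63, 6.38 and 6.89 at 48 hpi and at 5.73, 4.90 and 5.05 in control mesenchyme, and rose by 1.40 ± 0.23 (adjusted p = 0.0215). Control replicate 1 was the high one of its group, and the adjusted p of E2f8 was up to 0.0968, without 48 hpi replicate 3. Its other probe set was dim and stood at 0.09.

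E2f4 and E2f5, which repress with the pocket proteins in quiescent cells, and E2f6, which represses without them, did not pass. Their differences were -0.02 ± 0.10, -0.20 ± 0.11 and 0.20 ± 0.10 (adjusted p = 0.938, 0.381 and 0.350), and the groups overlapped in all 3 genes. The change of E2f1 exceeded that of E2f4 by 0.54, with separated per-sample differences (exact p = 0.1).

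Foxm1, the forkhead factor of the mitotic genes, did not pass in any of the 4 probe sets assigned to it alone. The probe set with the highest mean lay at 6.17, 6.30 and 6.44 at 48 hpi and at 6.18, 6.09 and 6.06 in control mesenchyme, with overlap and a difference of 0.19 ± 0.10 (adjusted p = 0.341). A dimmer one lay at 5.05, 4.80 and 5.19 at 48 hpi and at 4.52, 4.34 and 3.95 in control mesenchyme. There the groups stood apart, by 0.74 ± 0.17 (adjusted p = 0.0593, and 0.0318 with the replicate block). The mean over the 4 probe sets rose by 0.33 (adjusted p = 0.0457), so that the result for Foxm1 depends on how its probe sets are used. A further probe set, which the annotation assigns to Foxm1 together with Tex52 and Pebp1 and which was left out by the rule, rose by 2.76 ± 0.13. Mybl2 (B-Myb), which joins the MuvB core in S phase, was dim in both groups, at 4.03 to 4.97 at 48 hpi and 4.16 to 4.81 in control mesenchyme, and no change could be read from it.

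Of the MuvB core, Lin54 lay at 7.10, 6.90 and 7.16 at 48 hpi and at 6.69, 6.43 and 6.36 in control mesenchyme. The groups did not overlap and the difference of 0.56 ± 0.12 missed the threshold narrowly (adjusted p = 0.0509, and 0.0222 with the replicate block). Lin9 was dim in both groups, at 4.45 to 4.94 at 48 hpi and 4.06 to 4.23 in control mesenchyme, with a difference of 0.57 ± 0.13 (adjusted p = 0.0676, and 0.0221 with the block).

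The Cdc25 phosphatases remove the phosphates with which Wee1 and Pkmyt1 hold CDKs inactive. Cdc25c, the mitotic member, lay at 4.80, 4.73 and 5.30 at 48 hpi and at 3.67, 3.86 and 3.79 in control mesenchyme. The groups were well separated, with a rise of 1.17 ± 0.16 (adjusted p = 0.0111) and of 1.13 in its second probe set, although its mean was below the dim bound in both groups. Cdc25b ranged from 7.31 to 7.45 at 48 hpi and from 6.86 to 7.19 in control mesenchyme, separated by 0.31 ± 0.11 without passing (adjusted p = 0.201). Cdc25a, which acts at the entry to S phase, differed by 0.04 ± 0.10 (adjusted p = 0.879). The change of Cdc25c exceeded that of Cdc25a by 1.13 and that of Cdc25b by 0.86, with separated per-sample differences (exact p = 0.1 each).

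Wee1 lay at 8.29, 8.05 and 8.20 at 48 hpi and at 7.76, 8.0 and 7.22 in control mesenchyme. The groups did not overlap, but control replicate 3 stood low, and the difference of 0.52 ± 0.19 did not pass (adjusted p = 0.207). In the second Wee1 probe set, which was dimmer, the groups overlapped, with a difference of -0.05 (adjusted p = 0.845). The Pkmyt1 probe set that was used differed by 0.01 ± 0.12 (adjusted p = 0.986). Its second probe set, close in level, rose by 0.43 (adjusted p = 0.0405), so that the result for Pkmyt1 depends on the probe set.

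**Figure D4:**
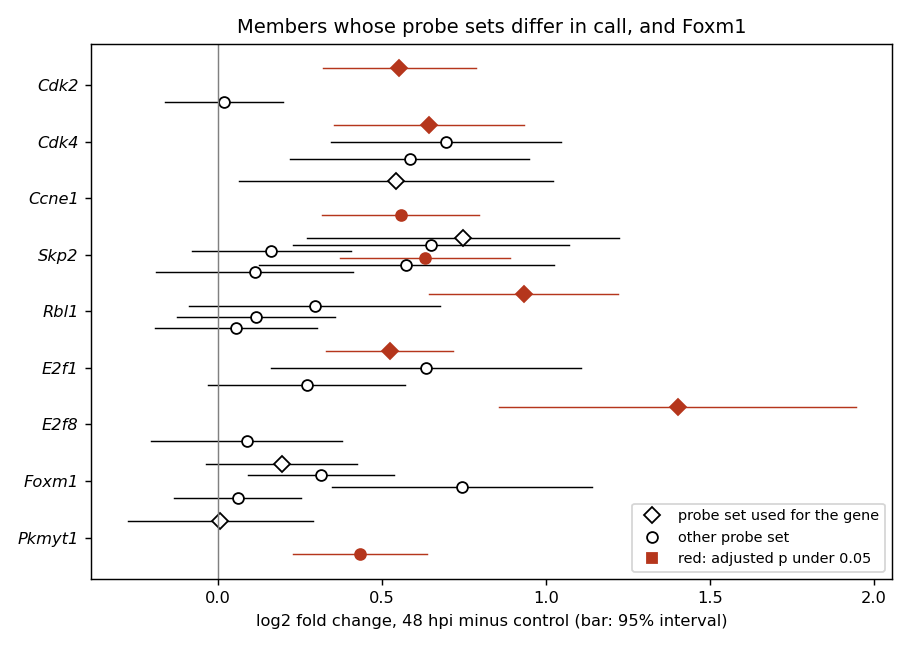
Log2 fold change, 48 hpi minus control (x axis), of every probe set of the 8 regulators whose probe sets differed in call, and of Foxm1; diamonds are the probe sets used, circles the others, bars 95% intervals, and red marks adjusted p under 0.05. For Rbl1 the probe set used stands at 0.93 and the others at 0.05 to 0.29, whereas the 3 Cdk4 probe sets stand at 0.58 to 0.69.

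Where any probe set of a gene passed, the others often did not. Of the 35 regulators with several probe sets, 4 rose in all of them (Ccna2, Cks1b, Cks2 and Cdc25c), 23 passed in none, and 8 rose in some. No regulator had probe sets that passed in opposite directions. Passing in none is not agreement, since the probe sets of Ccng1 ran from -0.07 to 0.50 and those of Wee1 from -0.05 to 0.52.

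Myc, a factor that promotes growth and entry into the cycle, lay at 7.08, 6.61 and 6.58 at 48 hpi and at 6.51, 6.47 and 5.41 in control mesenchyme. The groups did not overlap, but control replicate 3 stood far below the others, and the difference of 0.63 ± 0.30 did not pass (adjusted p = 0.318). Its relative Mycn overlapped between the groups, with a difference of 0.20 ± 0.12 (adjusted p = 0.412). Mdm2, the ligase that degrades p53 and is itself induced by p53, overlapped as well, with a difference of -0.10 ± 0.09 (adjusted p = 0.625).

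Listed targets of these regulators rose in nearly every case. Of 20 measured E2F target genes of S phase, 19 rose (median log2 change 1.18). Of 20 Foxm1 and MuvB target genes of G2 and mitosis all 20 rose (median 2.36), where 4.97% of all genes rose. The lists were compiled with results of these data known and are given as counts only. In the S phase list the thymidine kinase Tk1 lay at 7.49, 7.50 and 7.50 at 48 hpi and at 4.44, 4.55 and 4.70 in control mesenchyme, a rise of 2.94 ± 0.09. Uhrf1, which maintains DNA methylation after replication, rose by 2.87 ± 0.15. The exception was Tyms, the thymidylate synthase, with a difference of 0.39 ± 0.15 (adjusted p = 0.225) at a dim level. With the replicate block it rose as well (adjusted p = 0.0389), and all 20 S phase genes then passed. In the mitotic list Birc5 (survivin), a subunit of the chromosomal passenger complex, lay at 8.72, 8.75 and 9.04 at 48 hpi and at 3.94, 4.60 and 5.15 in control mesenchyme, a rise of 4.27 ± 0.28. The proliferation antigen Mki67 rose by 3.53 ± 0.34.

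Among the ligases that degrade cyclins and their inhibitors, 6 of 24 measured genes rose and 0 fell, with a median of 0.14. Over all genes 4.97% rose and 1.24% fell. The 2 largest rises were in partners of the anaphase-promoting complex that act in mitosis. Its E2 enzyme Ube2c lay at 9.15, 9.17 and 9.35 at 48 hpi and at 5.45, 5.32 and 5.69 in control mesenchyme, a 13.3-fold rise of 3.74 ± 0.12, and its activator Cdc20 rose by 2.78 ± 0.20. The other 4 were Fbxo5, an inhibitor of the same complex (1.13), Dtl (1.37), Ube2s (0.85) and Cdc34 (0.59), named after their values were seen. The 10 core subunits of the complex that were measured lay between -0.07 and 0.38 and did not pass.

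Of 8 partners of the E2F and MuvB factors, 2 rose, where 4.97% of all genes rose. Tfdp1, the DP protein that binds DNA together with an E2F, lay at 8.47, 8.58 and 8.80 at 48 hpi and at 7.73, 8.08 and 7.95 in control mesenchyme, a rise of 0.70 ± 0.13 (adjusted p = 0.0306). Hdac1, the deacetylase that pocket proteins recruit, rose by 0.39 ± 0.08 (adjusted p = 0.0368). Mybl1, a relative of Mybl2, differed by 0.98 ± 0.27 (adjusted p = 0.104, and 0.0399 with the replicate block).

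Of 26 further genes of the family, which are cyclins and CDKs with other roles, such as those of transcription, and the inhibitor Cdkn1c, 1 rose and 0 fell, with a median of 0.02, a share near the 4.97% of all genes. The gene that rose was Cdk16, by 0.47 ± 0.09. With the replicate block 2 rose and 2 fell, against 8.77% and 4.64% of all genes, and the 3 genes that joined were named after their values were seen. Cdkn1c, which encodes p57, lay at 10.44, 10.23 and 9.70 at 48 hpi and at 11.34, 10.59 and 10.97 in control mesenchyme. Every 48 hpi value was the lower one, by 0.84 ± 0.24 on average, which passed only with the block (adjusted p = 0.112, and 0.0239 with the block). Cdk7, the kinase that activates other CDKs, differed by 0.54 ± 0.12 (adjusted p = 0.0551, and 0.0254 with the block), and Ccnt2, a cyclin of transcription elongation, by -0.36 ± 0.32 (adjusted p = 0.593, and 0.0423 with the block).

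Of 22 measured p53 target genes 0 rose and 0 fell, where 4.97% of all genes rose and 1.24% fell. Their median was -0.10, with 8 above 0 and 14 below. All 48 hpi values lay below all control values in 7 of the 22, and above them in 2. Over all genes these shares were 13.1% and 17.2%. Btg2, an antiproliferative gene, lay at 11.57, 12.19 and 11.09 at 48 hpi and at 12.82, 12.28 and 12.03 in control mesenchyme, with overlap (-0.76 ± 0.30, adjusted p = 0.234). Trp53inp1 was lower in all 48 hpi samples, by 0.60 ± 0.14 on average (adjusted p = 0.0667, and 0.0153 with the replicate block). With the block 2 of the 22 genes fell, Trp53inp1 and Sesn1, against 4.64% of all genes. Of 9 Myc partners 1 rose, the repressor Mxd3, by 0.49 ± 0.10, a single gene that says little beside the 4.97% of all genes. Of 10 Myc target genes 3 rose and all 10 were above 0, with a median of 0.49. The 2 largest were the nucleolar genes Nolc1, with 0.66 ± 0.09, and Nop56, with 0.64 ± 0.10, and with the replicate block 7 of the 10 rose, against 8.77% of all genes.

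**Figure D5:**
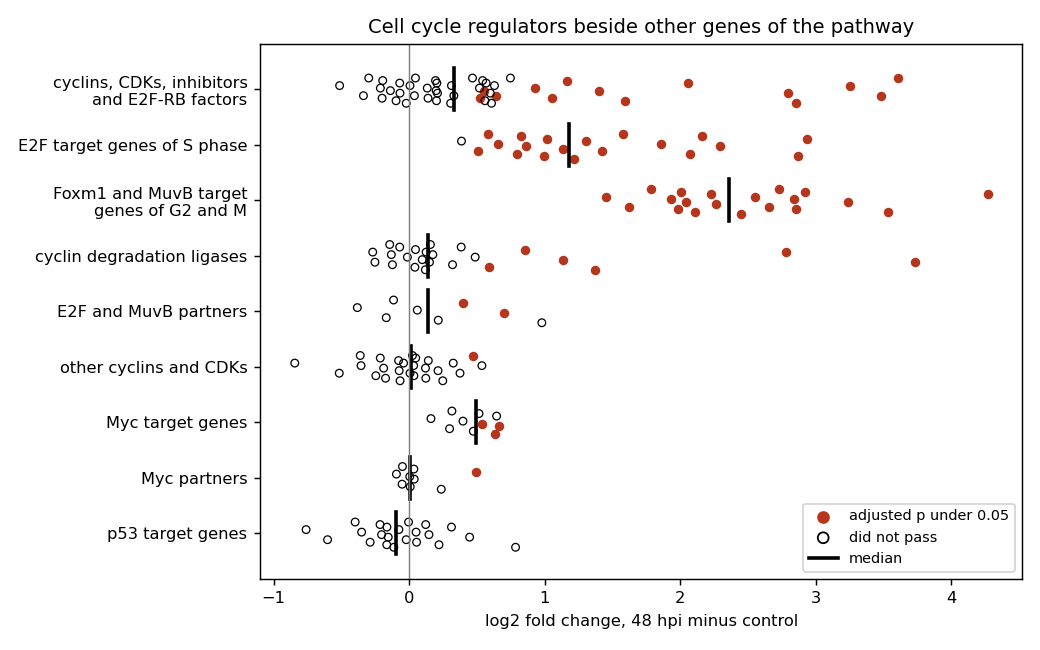
Log2 fold change, 48 hpi minus control (x axis), of the 47 regulators in the top row and of 8 lists of other genes of the pathway below; red points passed at adjusted p under 0.05 and black bars are medians. The medians are 0.33 for the regulators, 1.18 for E2F target genes of S phase, 2.36 for Foxm1 and MuvB target genes and -0.10 for p53 target genes.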

How the data were processed

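The authors hybridized amplified total RNA of each pooled sample to 1 Affymetrix mouse genome array. The deposited values are log2 expression values, 1 per probe set and array, which the authors made by robust multi-array analysis (RMA), a method that corrects background, equalizes the distributions of the arrays and summarizes probes. The submitters' processing notes name Affymetrix Expression Console 1.1, Partek 6.5 and RMA. RMA hides a change shared by most genes and compresses the fold changes of dim probe sets. The study's methods describe a two-way ANOVA with a threshold of p under 0.05 and state no adjustment. Epithelial arrays not analysed here also took part in it.

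Of 45101 probe sets, 64 controls were left out. By the array annotation 34945 probe sets had 1 gene symbol, 932 had several and 9160 had none. Of the probe sets with 1 symbol, 34741 were matched to RefSeq (GRCm38.p6) and the others kept their array symbol. Together they gave 18193 genes. Promoter windows are also from RefSeq. The build behind the array design was not used, and coordinates refer to RefSeq's windows alone.

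The test was limma 3.58.1 in R 4.3.3 (lmFit and eBayes, two-sided), with group as the only factor, Benjamini-Hochberg adjustment over 45037 probe sets, and 4 residual degrees of freedom to which the shared spread added 3.21. It was tested on simulated data with known changes. Errors of differences are SEs of the fit. Adjusted p-values are from this fit except where another is named. Per-sample differences of gene pairs were compared by exact permutation. Alternatives were a replicate block, leaving out each sample, other centring, dim probe sets left out, the mean over probe sets, an intensity trend and an ANOVA after the methods, reduced to these 6 arrays with group as the only factor. The number of arrays limits the precision.

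Both groups carry replicate numbers 1 to 3. Once group means were subtracted, same-numbered samples correlated at 0.620, 0.360 and 0.335 over probe sets and other pairs at -0.432 to 0.185. No label says what a number marks, so this pairing rests on the data alone. The block, with 2 residual degrees of freedom, is given beside each named gene or list count whose call it changed. Regulators, lists, pairs and tests were chosen with earlier results of these data known. Named were all 47 regulators and, from each other list, the 2 largest rises and the 2 largest falls that passed, or else the 2 genes with the highest mean (from marker lists, the gene with the highest mean and the one that passed with the largest change). Mybl1, Tyms and Sesn1 were named after their values were seen, as were the genes of which the text says so.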

Additional observations from a re-analysis of the deposited data

Results flagged for a closer look

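A probe set that the annotation assigns to Foxm1 together with Tex52 and Pebp1 lay outside the rule that chose the probe sets, and it was flagged because it carried a signal above the control samples. It lay at 6.05, 6.08 and 6.48 in the 48 hpi samples and at 3.38, 3.53 and 3.43 in the control samples, a rise of 2.76 ± 0.13 on the log2 scale (SE, limma adjusted p = 0.000185). The probe sets assigned to Pebp1 alone differed by -0.02 (adjusted p = 0.941) and -0.11 (adjusted p = 0.526), that of Tex52 alone by -0.01 (adjusted p = 0.986), and the 4 of Foxm1 alone by 0.06 to 0.74. In control mesenchyme the mean was 3.45 for the shared probe set, 11.29 and 11.89 for Pebp1, 3.07 for Tex52 and 3.36 to 6.11 for Foxm1. At 48 hpi it was 6.20 for the shared probe set, 11.27 and 11.78 for Pebp1, 3.06 for Tex52 and 3.42 to 6.30 for Foxm1. Which of the 3 genes gave this signal was not tested.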

How the results depend on the processing

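The count of regulators that rose was 14. It was 20 with the replicate block, which kept the 14 and added 6, so that the pairing changed no call among the 47 regulators but those 6. It was 9 to 12 when 1 sample was left out, 9 without both samples numbered 1 (an alternative chosen after seeing the data) and 3 (Cdk1, Ccnb2 and Cks2) with a 1-factor ANOVA on these 6 arrays with adjusted p, whose tests do not share the spread over probe sets. The methods' own ANOVA also held other arrays and used p under 0.05, with no adjustment stated. At an unadjusted p under 0.05 the ANOVA here had 20 regulators higher and 2 lower. The count was 12 to 18 with other centring, without dim probe sets, with the mean over probe sets or with an intensity trend. Of the 14, Cdk2, Cdk4 and E2f1 did not pass with centring on hybridization controls, and Cdk2 did not with the mean over probe sets. Cdc25c was left out with the dim probe sets. The count that fell was 0 under every one of these settings, with 25 regulators higher and 3 lower at an unadjusted p under 0.05 by limma. Shares of all genes that rose or fell were taken for the main fit and the block only. How far the counts of the other settings and of unadjusted p exceed such shares is therefore not known. Differences that changed sign all belonged to regulators that did not pass. Leaving out 1 sample moved Cdk6 between -0.025 and 0.25, Ccnd1 between -0.056 and 0.32, E2f4 between -0.080 and 0.055, Mybl2 between -0.20 and 0.26, Cdc25a between -0.0083 and 0.12 and Pkmyt1 between -0.11 and 0.087. Centring on hybridization controls, which raised all genes by a median of 0.13, gave 0.062 for Ccng1, 0.064 for Cdkn2b, 0.11 for E2f4 and 0.035 for Mdm2. The mean over probe sets gave 0.21 for Ccng1, and E2f4 was 0.036 without both samples numbered 1 and 0.0089 with arrays centred on their median. The cause of these moves was not tested. Control levels of 10 regulators were dim, and changes among dim values have little resolution here.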
